A study of Mus musculus with 13 samples.

Results

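The Nkx homeobox genes analysed here were 9 genes, Nkx2-1, Nkx2-2, Nkx2-3, Nkx2-5, Nkx2-6, Nkx2-9, Nkx3-2, Nkx6-1 and Nkx6-2, among 22367 protein-coding genes of the GENCODE vM1 annotation. They were chosen by name, and each was examined in 5 lists of ChIP-seq peaks from mouse embryonic stem cells (mESCs), at the promoter (1 kb on either side of the gene start) and over the gene body. The lists covered endogenous AEBP2 in replicates 1 and 2, H3K27me3 in replicates 1 and 2, and FS2-AEBP2, an AEBP2 with a Flag-StrepII tag, in 1 sample without a replicate. Per the labels, all 5 samples came from a male mESC line of strain 129/1 with wild-type genotype, grown undifferentiated in serum with LIF and without any treatment. For mass spectrometry, the study's methods name E14 mESCs expressing the tagged protein from a pCAG plasmid. The main-text section on ChIP names neither the line nor the plasmid for FS2-AEBP2. FS2-AEBP2 ChIP also followed another protocol than ChIP of the endogenous proteins, so tag, expression, protocol and library cannot be told apart in a comparison of these lists. The series has 13 samples, and SUZ12, the inputs and the Aebp2 mutant cells were not analysed here.

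H3K27me3, the trimethylation of lysine 27 of histone H3, is deposited by Polycomb repressive complex 2 (PRC2) and marks silent developmental genes. AEBP2 is an accessory subunit of PRC2. In mESCs PRC2 is found mainly at CpG islands, stretches rich in CpG dinucleotides, at genes of regulators of later lineages. Nkx genes belong to those regulators: they encode homeodomain transcription factors that pattern the ventral neural tube and specify thyroid, lung, heart, pancreas, spleen and axial skeleton, and they are generally silent in undifferentiated mESCs.

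All 9 Nkx promoters carried H3K27me3 in both replicates, against 15.0% of all protein-coding promoters, and 8 of them carried a peak in all 5 lists, against 4.57%. The exception was Nkx2-6, whose AEBP2 peaks lay over the last exon rather than the gene start. The DNA before the starts of Nkx2-6 and of 4 genes with AEBP2 at the promoter is shown first, as 300 bases of the mm9 genome for each gene, written 5′ to 3′ on the strand of the gene with every CpG in capitals. The promoter stretch of Nkx2-6 at chr14:69789333-69789632, the 300 bases before its start, lay inside an H3K27me3 peak in both replicates and had no base in an AEBP2 or FS2-AEBP2 peak.
Nkx2-6 upstream: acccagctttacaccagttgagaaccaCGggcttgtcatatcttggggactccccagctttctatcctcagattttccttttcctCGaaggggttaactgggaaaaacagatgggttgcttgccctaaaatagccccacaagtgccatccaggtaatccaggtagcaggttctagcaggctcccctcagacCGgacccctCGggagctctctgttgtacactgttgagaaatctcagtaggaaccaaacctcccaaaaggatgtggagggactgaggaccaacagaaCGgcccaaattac
The upstream stretch held 5 CpGs at a GC content of 51.3%, with an observed to expected CpG ratio of 0.255.

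A pair of upstream stretches with few CpGs is shown because AEBP2 covered both of them in full. These were Nkx2-5 at chr17:26978511-26978810 on the minus strand, with 8 CpGs and a GC content of 48.3%, and Nkx2-1 at chr12:57637896-57638195 on the minus strand, with 9 CpGs and a GC content of 50.0%.
Nkx2-5 upstream: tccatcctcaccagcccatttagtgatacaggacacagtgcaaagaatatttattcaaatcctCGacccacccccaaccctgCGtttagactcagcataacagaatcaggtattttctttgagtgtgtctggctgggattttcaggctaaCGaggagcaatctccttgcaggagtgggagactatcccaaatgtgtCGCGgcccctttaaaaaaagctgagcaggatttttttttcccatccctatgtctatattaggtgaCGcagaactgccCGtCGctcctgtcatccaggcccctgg
Nkx2-1 upstream: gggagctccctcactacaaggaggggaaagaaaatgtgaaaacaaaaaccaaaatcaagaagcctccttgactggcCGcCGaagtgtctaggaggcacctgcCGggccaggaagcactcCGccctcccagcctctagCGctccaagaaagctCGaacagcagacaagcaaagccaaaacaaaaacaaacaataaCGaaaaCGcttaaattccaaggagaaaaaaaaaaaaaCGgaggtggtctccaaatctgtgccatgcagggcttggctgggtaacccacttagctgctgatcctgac
Both lay wholly inside a peak in all 5 lists. The AEBP2 and FS2-AEBP2 peaks there were 6472 to 15267 bp long, so most of their bases lay outside the stretch shown. Nkx3-2, whose upstream stretch also held 8 CpGs, was split, since the promoter peaks of AEBP2 replicate 1 and FS2-AEBP2 stopped 12 and 426 bp short of its start and that of AEBP2 replicate 2 contained it. To define CpG-island-like regions, 500 bp windows that reached 55% GC and a CpG ratio (observed to expected) of 0.65 were joined where they overlapped. Unlike Nkx2-6, Nkx2-5 and Nkx2-1 had such a region within 1 kb of the start. It began 40 bp downstream of the start at Nkx2-5 and 125 bp upstream of it at Nkx2-1.

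The upstream stretches with the most CpGs among the 9 genes are shown because the lists of endogenous and tagged AEBP2 differed there. They belonged to Nkx6-2 at chr7:146768697-146768996, with 28 CpGs, and Nkx6-1 at chr5:102094246-102094545, with 22 CpGs, both on the minus strand.
Nkx6-2 upstream: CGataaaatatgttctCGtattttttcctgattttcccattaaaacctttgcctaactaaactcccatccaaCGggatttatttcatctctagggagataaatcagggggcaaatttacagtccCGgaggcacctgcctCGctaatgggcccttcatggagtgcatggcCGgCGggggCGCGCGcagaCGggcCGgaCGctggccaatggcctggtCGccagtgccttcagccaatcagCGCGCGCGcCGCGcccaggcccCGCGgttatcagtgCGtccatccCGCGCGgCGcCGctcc
Nkx6-1 upstream: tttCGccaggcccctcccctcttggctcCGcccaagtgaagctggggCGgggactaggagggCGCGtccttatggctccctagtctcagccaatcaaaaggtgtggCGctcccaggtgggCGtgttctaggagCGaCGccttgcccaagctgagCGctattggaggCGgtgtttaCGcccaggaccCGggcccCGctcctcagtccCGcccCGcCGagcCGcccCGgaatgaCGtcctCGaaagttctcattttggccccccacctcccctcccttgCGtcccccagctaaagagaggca
Both AEBP2 replicates and both H3K27me3 replicates covered these 2 stretches in full, whereas the FS2-AEBP2 peaks covered none of their bases. Whether the difference went with the number of CpGs was not tested. Nkx2-2, with 21 upstream CpGs, had its whole promoter inside an FS2-AEBP2 peak. At Nkx3-2, with 8, neither FS2-AEBP2 nor AEBP2 replicate 1 had a peak over the upstream stretch, while AEBP2 replicate 2 covered it.

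The lists themselves differed in size. They held 2877 and 6779 AEBP2 peaks, 2884 FS2-AEBP2 peaks, and 14112 and 9275 H3K27me3 peaks, with median lengths of 1193, 855, 893, 2073 and 2244 bp in that order. The number of reads behind a list is not given, so depth is unknown and an absent peak means only that none was called. Labels do not say whether replicates came from separate cultures, and which H3K27me3 list is replicate 1 is uncertain. Of 8 genes active in undifferentiated mESCs, 7 had no promoter peak in any list, among them Pou5f1, Nanog and Sox2, while Klf4 had a peak of FS2-AEBP2 and of H3K27me3 replicate 1. Expression was not measured.

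A promoter peak overlapped the window of 1 kb on either side of the start by at least 1 bp. AEBP2 replicate 1 had a peak at 8 of the 9 Nkx promoters, against 9.08% of all protein-coding promoters. In AEBP2 replicate 2 the count was again 8 of 9, against 22.3% of all promoters. FS2-AEBP2 was at 8 of 9, against 6.53%. H3K27me3 was at 9 of 9 in replicate 1, against 17.0%, and at 9 of 9 in replicate 2, against 17.7%. Both AEBP2 replicates shared 8 Nkx promoters, against 8.44% of all promoters, and both H3K27me3 replicates shared 9, against 15.0%. All 5 lists had a peak at 8 Nkx promoters, against 4.57% of all promoters. The gene missing from each AEBP2 count was Nkx2-6.

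Over the gene body all 9 genes had a peak in every list, Nkx2-6 included. The shares over all genes were 10.3% and 24.9% in the AEBP2 replicates, 7.69% for FS2-AEBP2, 20.8% and 20.2% in the H3K27me3 replicates, and 5.39% in all 5 lists. The median Nkx gene body was covered over 100% and 97.2% of its length in AEBP2 replicates 1 and 2, over 98.5% by FS2-AEBP2 and over 100% in both H3K27me3 replicates. Nkx2-6 had the lowest AEBP2 cover of its body in each list, with 27.8%, 21.9% and 32.7%, whereas H3K27me3 covered it in full in both replicates.

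Promoters with H3K27me3 did not all have AEBP2. Among the 3349 promoters with H3K27me3 in both replicates, the first AEBP2 list had a peak at 40.9%, the second at 68.3%, the FS2-AEBP2 list at 38.2%, and all 3 lists at 30.5%. Of these promoters, 2881 had a CpG-island-like region, and there the shares were 45.9%, 75.8%, 42.7% and 34.4%. The Nkx genes gave 8 promoters with both H3K27me3 and such a region, and all 8 had AEBP2 in all 3 lists.

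**Figure D1:**
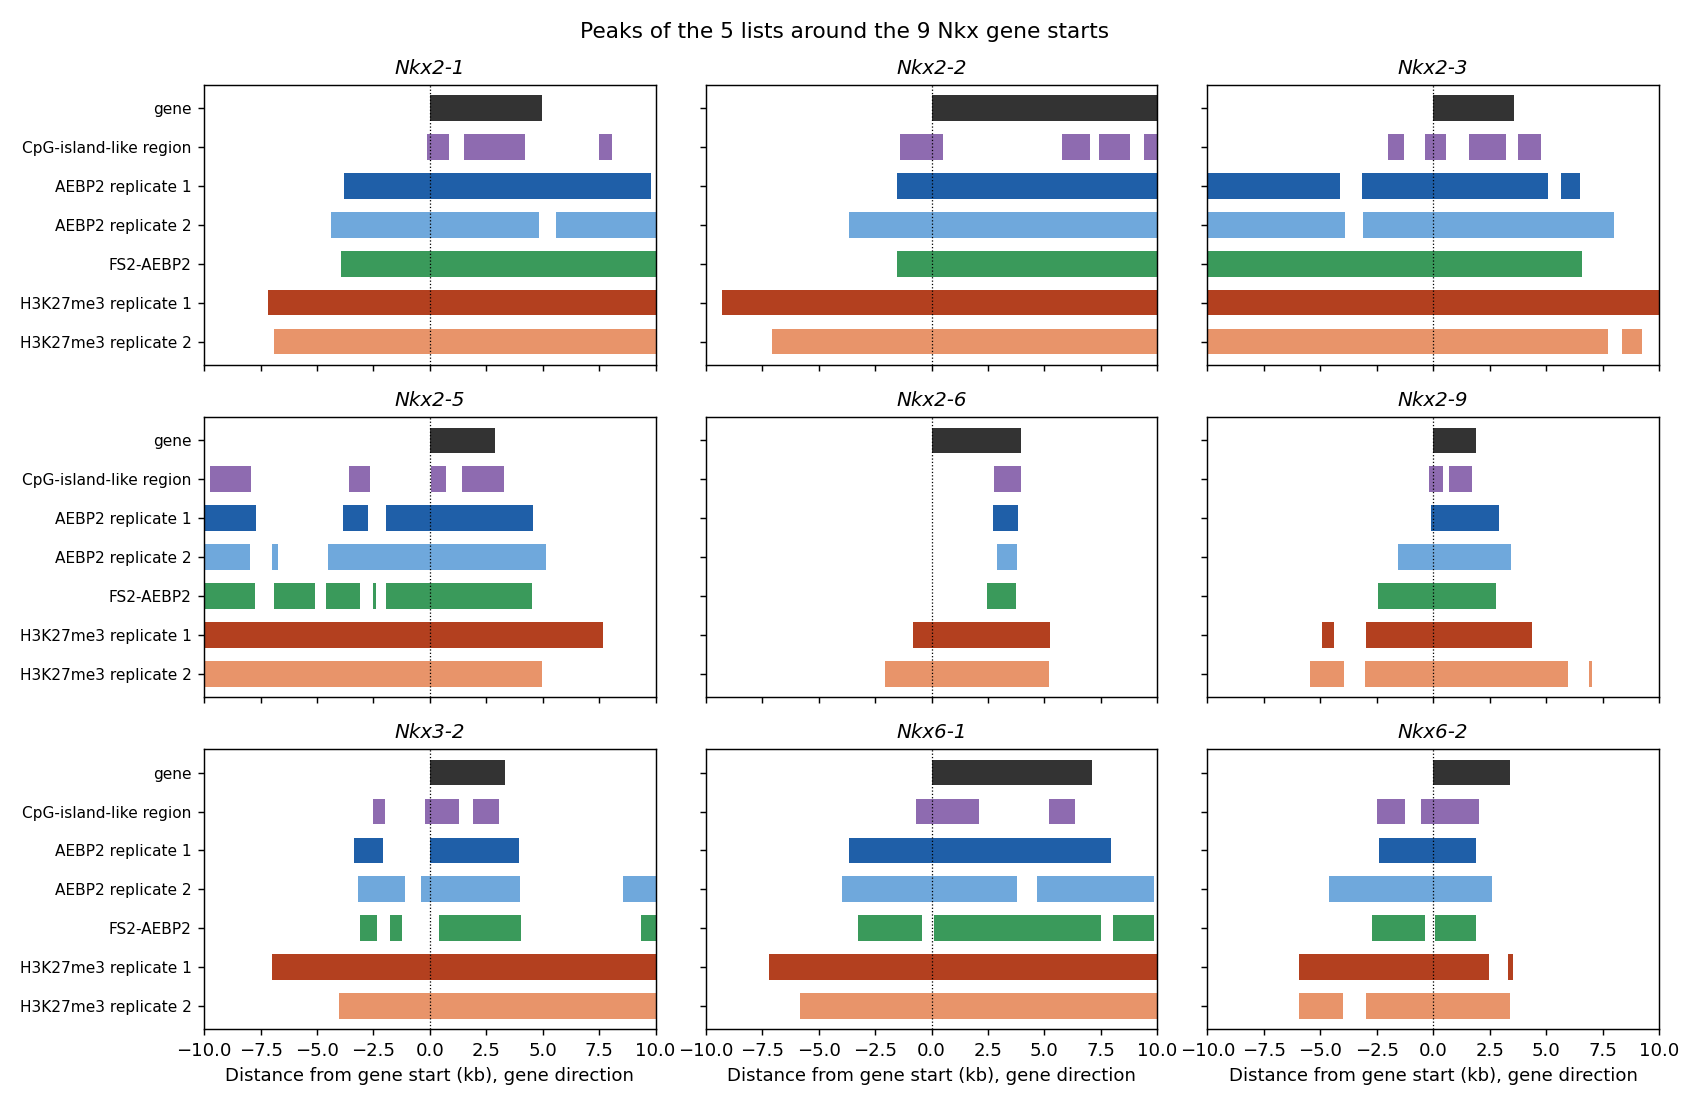
Maps of the peaks around the 9 Nkx genes, with the distance from the gene start in kb along the horizontal axis, positive in the direction of the gene, and 1 row each for the gene, the CpG-island-like regions and the 5 peak lists. At 8 genes the AEBP2 and FS2-AEBP2 peaks lie at or beside the dotted start line, whereas at Nkx2-6 they lie 2444 to 3847 bp downstream, over its CpG-island-like region, inside H3K27me3 peaks that span the whole gene.

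The Nkx2-1 gene encodes a factor of the thyroid, lung and ventral forebrain and lies at chr12:57632922-57637895 on the minus strand. Its promoter peak was 13629 bp long in AEBP2 replicate 1, 9210 bp in replicate 2 and 15267 bp for FS2-AEBP2, and 23134 and 28844 bp for H3K27me3. Every one of them reached past both ends of the gene except that of AEBP2 replicate 2, which ended 4822 bp downstream of the start and was followed by a second peak. Nkx2-9, which is expressed next to the floor plate of the neural tube, lies 74480 bp away at chr12:57712376-57714271 on the minus strand. Its promoter peaks were shorter, 3005, 5026 and 5246 bp for AEBP2 replicates 1 and 2 and FS2-AEBP2, and 7385 and 9014 bp for H3K27me3. The joined H3K27me3 peaks of both replicates formed separate domains at the 2 genes, of 31229 bp at Nkx2-1 and 9014 bp at Nkx2-9.

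Nkx2-2, a factor of the most ventral neural progenitors, oligodendrocytes and pancreatic endocrine cells, lies at chr2:147003282-147019979 on the minus strand. The start of its gene record belongs to non-coding transcripts, and the first start of a coding transcript is 7841 bp further downstream, at position 147012138. Single peaks took in both starts in every list, with 16934, 19883 and 16569 bp for AEBP2 replicates 1 and 2 and FS2-AEBP2, and 24963 and 23291 bp for H3K27me3. The choice of start therefore made no difference to the presence of a peak. These were the longest promoter peaks among the 9 genes in both AEBP2 replicates.

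Nkx2-3, a factor of gut mesoderm and spleen at chr19:43686815-43690381 on the plus strand, had promoter peaks of 8264 and 11155 bp in the AEBP2 replicates. Its FS2-AEBP2 peak of 20878 bp was the longest FS2-AEBP2 promoter peak of the 9 genes, and it began 14267 bp before the start, compared with 3161 and 3125 bp for the AEBP2 replicates. The maps show other AEBP2 peaks beyond a short gap there, so the same upstream stretch was called as 1 peak in the FS2-AEBP2 list and as several in the AEBP2 lists. H3K27me3 peaks were 29307 and 26475 bp long. Nkx2-5, an early factor of the heart at chr17:26975609-26978510 on the minus strand, had peaks of 6513, 9680 and 6472 bp for AEBP2 replicates 1 and 2 and FS2-AEBP2, and H3K27me3 peaks of 24342 and 18769 bp. The AEBP2 replicate 2 peak reached 5164 bp downstream of the start, past the end of the H3K27me3 replicate 2 peak. The H3K27me3 peaks of Nkx2-5 extended much further before the start, by 16673 and 13819 bp, than past it, by 7668 and 4949 bp.

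Nkx3-2, a factor of the axial skeleton and cartilage, lies at chr5:42152404-42155735 on the minus strand. Its AEBP2 promoter peak stopped 12 bp short of the start in replicate 1 and reached 370 bp beyond it in replicate 2, with lengths of 3933 and 4375 bp. The FS2-AEBP2 peak of 3593 bp stopped 426 bp short of the start. All 3 lay over the gene, and H3K27me3 peaks of 25820 and 19359 bp ran far past them on both sides.

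Nkx6-1, a factor of motor neuron progenitors and pancreatic beta cells at chr5:102087158-102094245 on the minus strand, had AEBP2 promoter peaks of 11617 and 7734 bp that contained the start. FS2-AEBP2 had a peak on each side of the start instead, of 7406 bp over the gene and 2830 bp before it, with nothing called between 408 bp upstream and 109 bp downstream. Nkx6-2, a related factor of the ventral neural tube and of myelinating oligodendrocytes at chr7:146765276-146768696 on the minus strand, showed the same arrangement. AEBP2 peaks of 4280 and 7196 bp contained its start, and FS2-AEBP2 peaks of 1827 and 2336 bp lay 69 bp downstream and 375 bp upstream of it. H3K27me3 peaks contained both starts, with 27813 and 18994 bp at Nkx6-1 and 8431 and 6398 bp at Nkx6-2.

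The gap of the FS2-AEBP2 list at gene starts was not limited to these genes. FS2-AEBP2 peaks contained the start base at 5 of the 8 Nkx genes with a promoter peak, compared with 7 of 8 and 8 of 8 in the AEBP2 replicates and 9 of 9 in both H3K27me3 replicates. At all 1023 genes with a promoter peak in every list, the start base was inside an FS2-AEBP2 peak at 58.7%, compared with 78.9% and 91.5% for AEBP2 and 93.3% and 90.2% for H3K27me3. Each peak of these lists also names inner blocks, the narrower stretches inside a broad peak. An FS2-AEBP2 inner block contained the start at 1 of 8 Nkx genes, Nkx2-1, and AEBP2 inner blocks at 4 and 6 of 8. H3K27me3 inner blocks contained the start at 7 and 6 of 9 Nkx genes, and at Nkx2-6 and Nkx6-1 in neither replicate. At the 1023 genes the shares were 27.8% for FS2-AEBP2, 37.6% and 67.3% for AEBP2, and 69.3% and 60.9% for H3K27me3.

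Nkx2-6, a factor of the pharyngeal endoderm and the cardiac outflow tract, lies at chr14:69789633-69793596 on the plus strand. H3K27me3 covered the whole gene in a peak of 6088 bp in replicate 1 (chr14:69788799-69794886) and of 7245 bp in replicate 2 (chr14:69787591-69794835). Both had high scores, above 92.1% and 89.6% of the peaks of their lists, but each score belongs to a whole peak, not to the promoter. Inner blocks made up 44.0% and 41.0% of these H3K27me3 peaks in replicates 1 and 2. They covered 23.5% and 10.5% of the promoter, the lowest shares among the Nkx genes analysed here, and did not contain the gene start in either replicate. The 3 AEBP2 peaks were far shorter and lay in the 3′ part of the gene. They spanned chr14:69792378-69793480 in AEBP2 replicate 1 (1103 bp), chr14:69792551-69793420 in replicate 2 (870 bp) and chr14:69792077-69793374 for FS2-AEBP2 (1298 bp). All 3 shared 824 bp, chr14:69792551-69793374, which begin 2918 bp downstream of the gene start. The shared stretch covered the annotated coding part of the last exon at chr14:69792689-69793308, and shorter annotated coding parts within it. Another annotated coding part, at chr14:69793103-69793408, ran past the end of the shared stretch. The scores of these peaks were above 26.7%, 67.4% and 36.2% of their lists. These ranks were below the Nkx medians of the same lists. The peaks of the 3 libraries overlapped in part, with the 824 bp in common.

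The 8 Nkx genes with AEBP2 at the promoter had long peaks. Their longest promoter peak had a median length of 7389 bp in AEBP2 replicate 1 (3005 to 16934 bp), 8472 bp in replicate 2 (4375 to 19883 bp) and 6939 bp for FS2-AEBP2 (2336 to 20878 bp). With peaks within 1 kb joined, the FS2-AEBP2 median rose to 14395 bp and became the longest of the 3, with 10006 and 11741 bp for AEBP2. All protein-coding genes with a promoter peak in these lists had medians of 1244, 872 and 1409 bp, and those that also had H3K27me3 in both replicates had 2027, 1912 and 1632 bp. The H3K27me3 peaks of all 9 genes had medians of 24342 bp (6088 to 29307 bp) and 18994 bp (6398 to 28844 bp), compared with 4864 and 3971 bp over all genes with a promoter peak. In each list, the longest promoter peak of every Nkx gene that had one (8 for AEBP2 and FS2-AEBP2, 9 for H3K27me3) was longer than the median of the genes with H3K27me3 in both replicates.

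The score of the peak caller has no stated scale, so each peak was ranked by the share of its own list with a lower score. The Nkx promoter peaks had median ranks of 85.0% and 95.2% in the AEBP2 replicates, 95.5% for FS2-AEBP2, and 96.5% and 92.2% for H3K27me3. Over all genes with a promoter peak the medians were 47.2%, 51.9%, 57.5%, 79.4% and 71.6%. Replicates did not rank the Nkx genes alike. Nkx6-2 ranked at 26.7% in AEBP2 replicate 1 and at 87.4% in replicate 2. Nkx2-9 ranked at 90.9% and 57.7%, the other way round. Nkx2-3 and Nkx2-2, by contrast, stayed near the top with 95.9% in both replicates and with 95.3% and 94.5%. For H3K27me3 the widest gap was at Nkx2-9, with 67.4% and 94.3%.

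**Figure D2:**
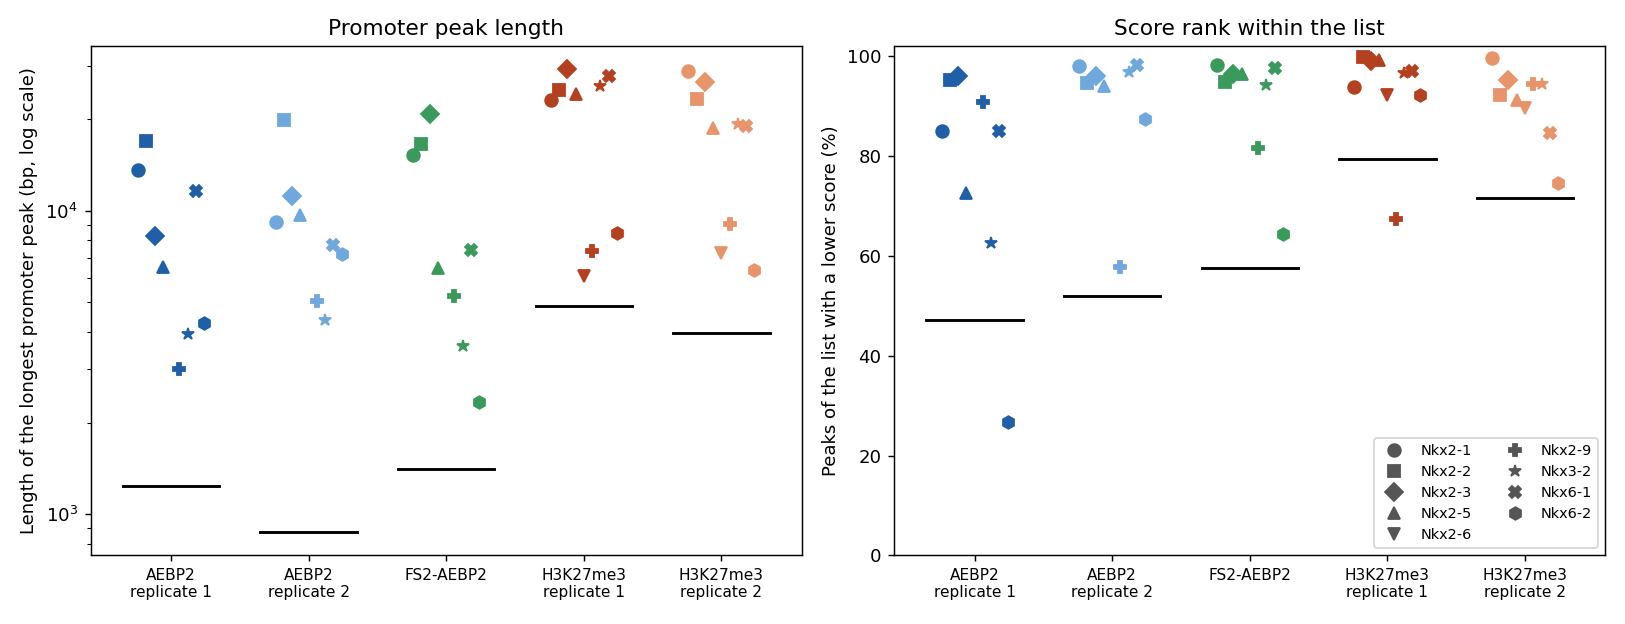
Length of the longest promoter peak in bp on a log scale (left) and the share of the list with a lower score in percent (right) for each Nkx gene (symbols) in the 5 lists (columns), with a black line for the median of all protein-coding genes with a promoter peak in that list. All Nkx peaks lie above the line for length, while for score Nkx6-2 in AEBP2 replicate 1, at 26.7%, and Nkx2-9 in H3K27me3 replicate 1, at 67.4%, lie below it, and Nkx2-6 has no point in the AEBP2 and FS2-AEBP2 columns.

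The share of the window 5 kb on either side of the start that peaks covered depends less on how a list splits a domain into peaks. Its median over the 9 genes was 65.2% and 80.8% in the AEBP2 replicates, 65.4% for FS2-AEBP2, and 100% and 99.5% for H3K27me3. Over all genes with a promoter peak it was 12.6%, 9.03%, 15.9%, 51.0% and 44.2%. Counting inner blocks only, the Nkx medians fell to 35.0% and 50.1% for AEBP2, 49.1% for FS2-AEBP2, and 64.0% and 77.3% for H3K27me3.

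The mean AEBP2 cover of this window was highest at Nkx2-3, with 91.3% ± 1.23 (SD, n = 2). It was 90.2% ± 2.73 at Nkx2-1, 85.5% ± 13.6 at Nkx2-5, 83.7% ± 4.09 at Nkx6-1 and 75.8% ± 15.1 at Nkx2-2 (SD, n = 2 each). Neighbours in that order overlapped in their replicate values. The replicates of Nkx3-2, at most 64.3%, fell just short of those of Nkx2-2, at least 65.2%. The means were 58.4% ± 8.40 at Nkx3-2, 57.4% ± 20.6 at Nkx6-2 and 40.2% ± 14.3 at Nkx2-9 (SD, n = 2 each), which again overlapped in turn. Nkx2-6 stood apart at the end, with 9.86% ± 1.65 (SD, n = 2). For FS2-AEBP2 the cover ran from 100% at Nkx2-3 to 13.0% at Nkx2-6, without a replicate.

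H3K27me3 covered the whole window in both replicates at Nkx2-1, Nkx2-2, Nkx2-3 and Nkx6-1. The mean was 99.7% ± 0.361 at Nkx2-5, 95.1% ± 6.89 at Nkx3-2 and 84.9% ± 8.31 at Nkx2-9 (SD, n = 2 each). The lowest means were 75.7% ± 2.11 at Nkx6-2 and 64.4% ± 8.54 at Nkx2-6 (SD, n = 2 each), and the replicates of these 2 genes overlapped neither each other nor those of Nkx2-9. Nkx2-6 was thus lowest for both AEBP2 and H3K27me3.

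**Figure D3:**
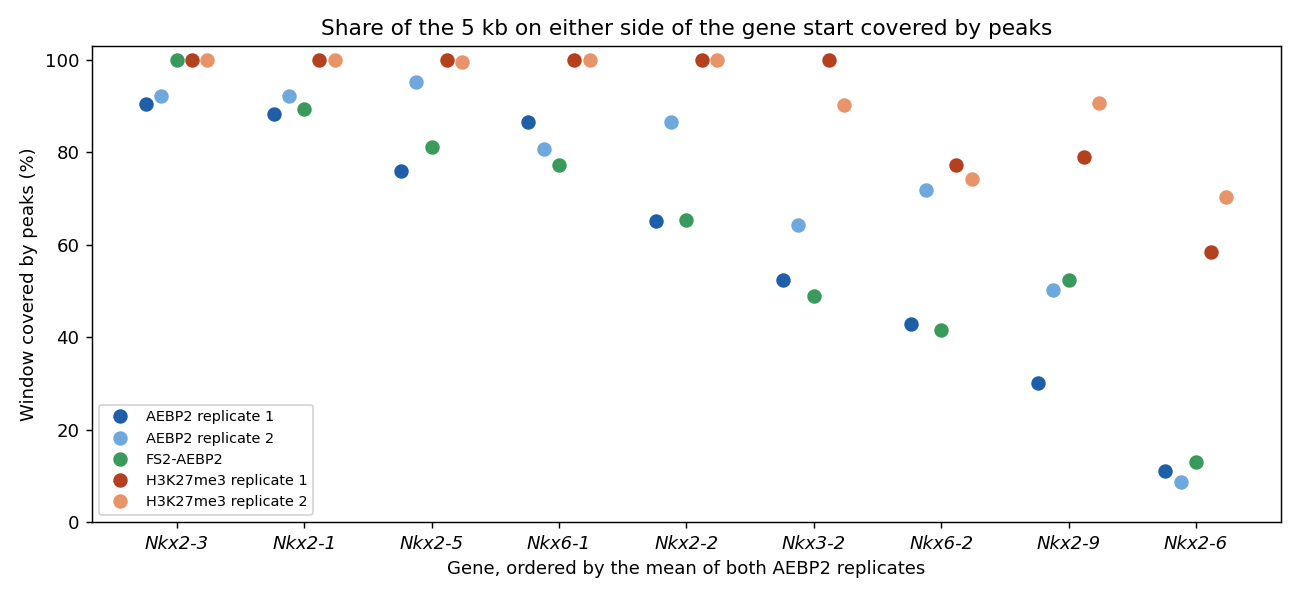
Share of the 5 kb on either side of the gene start covered by peaks in percent for the 9 Nkx genes, ordered by the mean of both AEBP2 replicates, with 1 point per list. H3K27me3 points lie between 58.3% and 100%, and the AEBP2 and FS2-AEBP2 points fall to between 8.70% and 13.0% at Nkx2-6.

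H3K27me3 peaks of both replicates, joined where they overlapped, formed a domain at each gene. The domains of Nkx2-3, Nkx2-1, Nkx6-1, Nkx3-2, Nkx2-2 and Nkx2-5 were 31959, 31229, 27813, 25820, 25469 and 24342 bp long. Those of Nkx6-2, Nkx2-9 and Nkx2-6 were 9456, 9014 and 7296 bp long, so the lengths fell into a long and a short group with none between. The median was 25469 bp, compared with 9288 bp at the 1316 genes with promoter peaks in both replicates of AEBP2 and of H3K27me3. Every AEBP2 and FS2-AEBP2 promoter peak of the Nkx genes lay inside its domain, except 1 of the 3 at Nkx2-2, which reached past the edge. AEBP2 filled a median of 43.8% and 55.8% of the domain in replicates 1 and 2, and FS2-AEBP2 55.03%, compared with 25.9%, 35.9% and 19.4% at the 1316 genes. Those genes were not chosen for FS2-AEBP2, and 1023 of them had an FS2-AEBP2 promoter peak, so the last value includes genes without one. The fill was lowest at Nkx2-6, with 15.1%, 11.9% and 17.8%. Among the Nkx genes with a long domain, Nkx3-2 had the lowest fill in each list, with 20.3%, 36.4% and 23.4%. Its values for AEBP2 replicate 2 and FS2-AEBP2 were still above the medians of the 1316 genes.

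The lists placed their peaks on largely the same bases around these genes. Within 10 kb of the start, both AEBP2 replicates shared a median of 78.8% of the bases that either covered (59.5% to 89.4%), and the H3K27me3 replicates 84.6% (74.3% to 98.4%). FS2-AEBP2 shared 76.3% with AEBP2 replicate 1 and 74.0% with replicate 2. At the 1316 genes the medians were 67.4%, 75.4%, 55.5% and 51.8%. Those with FS2-AEBP2 again include genes without an FS2-AEBP2 promoter peak. The least agreement between AEBP2 replicates was at Nkx6-2 and Nkx2-9, with 59.5% and 59.8%.

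The 9 genes had 25 CpG-island-like regions over the gene or within 5 kb of its start, and every one of the 25 met a peak in every list. Across the genome 15.2% and 31.9% of 20675 regions met a peak in the AEBP2 replicates, 12.4% for FS2-AEBP2, and 25.5% and 27.1% for H3K27me3. AEBP2 covered 18 and 24 of the 25 regions from end to end in replicates 1 and 2, FS2-AEBP2 covered 19, and H3K27me3 covered 25 in both replicates.

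Within 5 kb of the starts, bases inside these regions were covered more than the other bases at all 9 genes in both AEBP2 replicates. The medians were 96.9% against 56.8% in replicate 1, 100% against 73.4% in replicate 2 and 87.5% against 57.2% for FS2-AEBP2, where 8 of 9 genes had the same direction and Nkx2-3 was covered in full. At Nkx2-6 the contrast was 91.7% against 0.0341%, 72.5% against 0%, and 82.8% against 3.45%. At Nkx6-2 it was 92.9% against 11.8% in AEBP2 replicate 1 and 100% against 54.6% in replicate 2. For H3K27me3 the medians were 100% against 100% in replicate 1 and 100% against 99.2% in replicate 2, with 3 and 5 genes covered more inside the regions. H3K27me3 covered all these regions in full, so no gene could be covered less inside them. At Nkx2-6 its cover was 100% against 52.7% and 66.4%, and at Nkx6-2 100% against 63.1% and 58.2%. Every gene but Nkx2-6 had such a region within 1 kb of its start, so region and nearness to the start were not told apart.

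The single CpG-island-like region of Nkx2-6 spanned chr14:69792381-69793580, over the end of the intron and most of the last exon. It was 1200 bp long with a GC content of 58.7% and a ratio of 0.728, and its near edge lay 2748 bp downstream of the start. Nkx2-6 was the only one of the 9 genes without such a region within 1 kb of the start. The share of promoters with a region was 88.9% for the Nkx genes, 86.0% for genes with H3K27me3 in both replicates and 55.05% for all genes. Regions filled a median of 31.3% of the 10 kb around the Nkx starts, compared with 13.5% and 8.80% in the other sets. The 300 bases before the start held a median of 14 CpGs for the Nkx genes and 16 and 9 for the other sets.

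**Figure D4:**
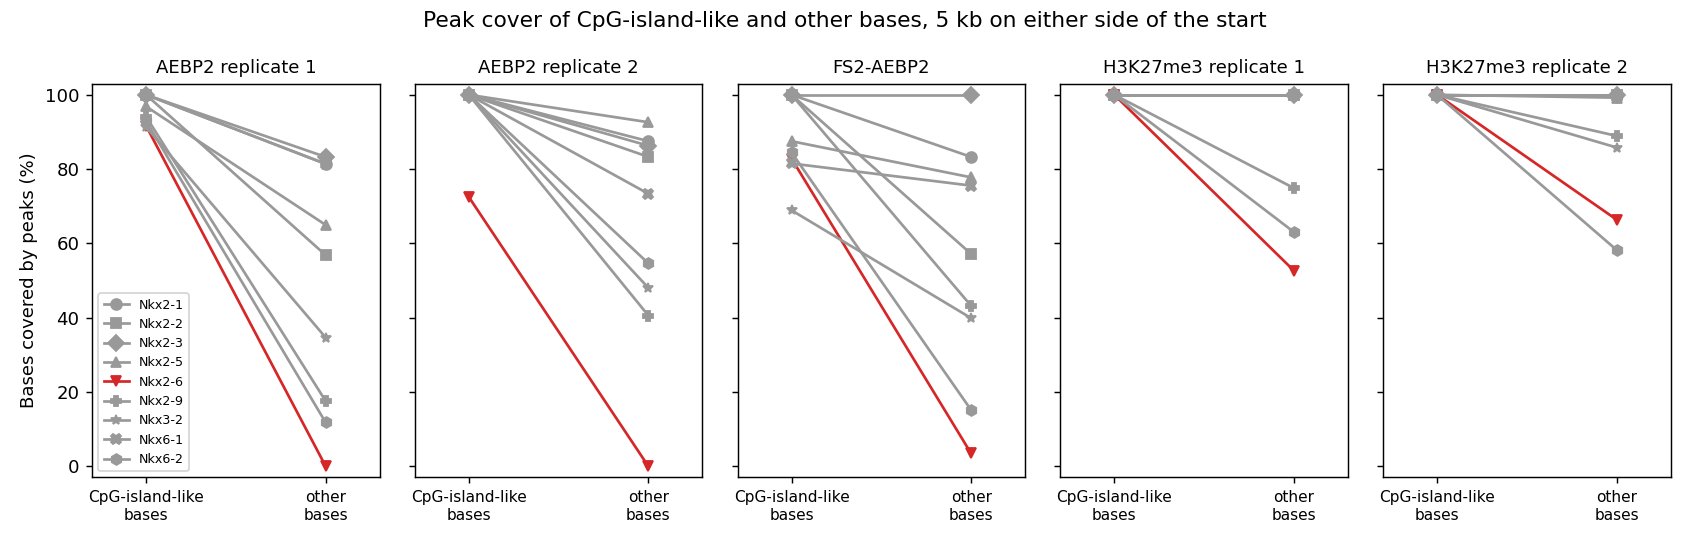
Share of bases covered by peaks in percent, for bases inside CpG-island-like regions and for the other bases within 5 kb of the gene start, with 1 panel per list and 1 line per Nkx gene. Lines fall from left to right in both AEBP2 panels for all 9 genes, with Nkx2-6 (red) falling to 0.0341% and 0%, while several H3K27me3 lines stay at 100%.

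Among other Nkx genes of the annotation, Nkx1-1, Nkx1-2 and Nkx2-4 had a promoter peak in all 5 lists. Nkx6-3 had a promoter peak of H3K27me3 replicate 1 only, so like Nkx2-6 it had no AEBP2 peak there.

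The protein-coding neighbours of the 9 genes, 16 without the pair Nkx2-1 and Nkx2-9, are compared next. Peaks were present at 6 and 9 of the 16 in the AEBP2 replicates, at 3 for FS2-AEBP2 and at 7 in each H3K27me3 replicate, against 9.08%, 22.3%, 6.53%, 17.0% and 17.7% of all promoters. The 3 neighbours with a peak in all 5 lists were Nkx2-4 and the paired box genes Pax1 and Pax9, which act in the sclerotome.

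Genes that work with the Nkx factors were taken from lists by tissue. A promoter peak in all 5 lists was present at 8 of 10 ventral neural tube genes, against 4.57% of all promoters, and of the other two Dbx2 had H3K27me3 in both replicates without AEBP2, and Gli1 had no peak. The counts were 6 of 10 for pancreas, 5 of 7 for sclerotome and cartilage, 4 of 9 for heart, 2 of 5 for oligodendrocytes and 1 of 8 for thyroid and lung. At the heart gene Gata4, a partner of Nkx2-5, H3K27me3 was present in both replicates and AEBP2 in replicate 2 only. Pax8, which acts with Nkx2-1 in the thyroid, had every list but AEBP2 replicate 1.

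Outside the family, genes whose cover of the 10 kb window over the 5 lists came close to the Nkx medians included Lhx8, Prox1, Evx2 and Npas3. The distance, the square root of the summed squared differences in percentage points, ran from 5.02 for Lhx8 to 8.15 for Npas3. Lhx8, a LIM homeobox gene of the ventral forebrain, had 63.7% and 84.3% AEBP2, 62.2% FS2-AEBP2 and 100% H3K27me3 cover in both replicates.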

How the data were processed

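Each of the 5 lists gives broad peaks that the authors called in a single sample, with a start, an end, inner blocks and a deposited whole-number score of unstated scale. The submitters' processing notes name Bowtie, SAMtools, Picard, MACS2 2.0.10.2 and mm9, and thresholds, duplicate handling and the control library are not given in the sources used here. The labels name the antibody as H3K27 without the methylation state, which the paper gives. Sample records set the replicate numbers, although the H3K27me3 list names seem to carry the opposite ones. Peaks on chromosomes other than 1 to 19, X and Y were left out (2 of 2879 for AEBP2 replicate 1 and 13 of 9288 for H3K27me3 replicate 2).

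Genes came from GENCODE vM1 and sequences from the NCBIM37 (mm9) genome, and 0 peaks ended past a chromosome end. Windows of 500 bp were taken every 10 bp for CpG-island-like regions. Scores were ranked within a list only. Without read counts and with at most 2 lists per target no test was run, and the same value over all genes or a larger gene set stands beside the counts of peaks at promoters, gene bodies and starts. All 9 genes were named by rule. They and the gene lists were chosen with earlier results of these data known. Where a gene name had more than 1 record, the longer was used. Alternatives were other windows, starts, overlaps, score limits, joined peaks, ranks and each replicate left out. The scripts were tested on simulated data and used Python 3.11.15, numpy 2.4.6, pandas 2.3.3, scipy 1.17.1 and matplotlib 3.10.9. Some genes and a sequence are not reported here.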

Additional observations from a re-analysis of the deposited data

How the results depend on the processing

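Of 52 recomputed counts of Nkx genes with a peak, 51 stayed within 1.5 times the value given, and the exception was FS2-AEBP2 when the start base itself had to lie inside a peak, with 5 genes in place of 8. The counts started at 8 or 9 of 9, so no rise could pass this limit and smaller falls stayed within it. With scores at or above the list median, for example, the gene body count of AEBP2 replicate 1 fell from 9 to 7. Within 2.5 kb of the start FS2-AEBP2 reached 9 genes, Nkx2-6 included. Leaving out replicate 1 or 2 kept the counts at 8 for AEBP2, 9 for H3K27me3 and 8 for all lists. Neither a list left out of a shared count nor a wider window can lower a count, so no fall was possible in these alternatives. Values that depend on lengths moved more. Joining peaks within 1 kb raised the median promoter peak to 10006 and 11741 bp in the AEBP2 replicates and 14395 bp for FS2-AEBP2. In a window of 2.5 kb on either side the median cover was 85.6% and 100% for AEBP2, 89.7% for FS2-AEBP2 and 100% for H3K27me3 replicate 2. With 10 kb on either side it was 49.5% and 60.0% for AEBP2, 57.7% for FS2-AEBP2, and 85.9% and 74.7% for H3K27me3. Counting inner blocks only, an alternative chosen after seeing the data, gave 35.0% and 50.1% for AEBP2, 49.1% for FS2-AEBP2, and 64.0% and 77.3% for H3K27me3. With tied scores given their middle rank, median score ranks were 86.1% and 95.4% for AEBP2, 95.6% for FS2-AEBP2, and 96.7% and 92.8% for H3K27me3. Against promoter peaks only they were 81.4% and 94.2% for AEBP2, 92.2% for FS2-AEBP2, and 88.9% and 86.2% for H3K27me3. No paired analysis was possible because the values come from peak lists without a test. Depth is unknown, so differences in list size and peak length between libraries, among them the 2877 and 6779 peaks of the AEBP2 replicates, could not be scaled to it.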

Other observations

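Genes with the arrangement of Nkx2-6 were few. Of the 3349 promoters with H3K27me3 in both replicates, 973 (29.1%) had no AEBP2 or FS2-AEBP2 peak. Among those 973 genes, 38 (3.91%) had a peak over the gene body in all 3 AEBP2 and FS2-AEBP2 lists, Nkx2-6 among them. At 33 of these 38 (86.8%) a CpG-island-like region in the gene body met all 3 lists, and 24 of the 38 (63.2%) had no such region within 1 kb of the start. The group was defined by these peaks after the values of Nkx2-6 had been seen, so the counts are a description.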
